A study of Homo sapiens with 18 samples.

Results

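The extracellular adenosine pathway was followed across 3 established human cell lines in normoxia and hypoxia. The 10 genes described here were chosen by symbol from the 23106 genes counted in each of 18 samples. They comprise the cell-surface enzymes that make adenosine (NT5E, ENTPD1 and ENTPD2), its receptors (ADORA1, ADORA2A and ADORA2B), its equilibrative transporters (SLC29A1 and SLC29A2) and the enzymes that remove it inside cells (ADK and ADA). All 10 were found in the count data. PolyA+ RNA was sequenced from HKC-8 renal tubule cells, from RCC4 renal carcinoma cells stably transfected with wild-type VHL (RCC4+VHL) and from HepG2 liver carcinoma cells, with 3 samples per condition. Hypoxia lasted 16 h at 0.5% oxygen for HKC-8 and HepG2 cells, and the labels give 1% oxygen for 24 h for RCC4+VHL cells, whereas the study describes a single exposure for every line. For HKC-8 the hypoxic titles read 0.1% oxygen, against 0.5% in the other labels, and the normoxic titles read 21. Because exposure as labelled differs, a difference between RCC4+VHL and another line cannot be told apart from a difference in oxygen level or duration. If the HKC-8 titles hold, a difference between HKC-8 and HepG2 cells cannot be told apart from one in oxygen level either. RCC4 cells lack functional VHL, the protein that marks HIF-α for degradation, so that RCC4+VHL cells carry it from a transgene. Nothing in the labels says whether the samples of a group were separate cultures, so p-values measure only the spread between these samples, which may be technical.

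Cells release ATP when they are stressed or short of oxygen. At the cell surface ENTPD1 (CD39) and ENTPD2 strip phosphates from ATP, the former down to AMP and the latter mainly to ADP, and NT5E (CD73) converts AMP into adenosine. Adenosine then acts on G protein-coupled receptors: ADORA1 couples to inhibitory G proteins and lowers cyclic AMP, whereas ADORA2A and ADORA2B couple to stimulatory ones and raise it, ADORA2B with the lower affinity. The signal ends when SLC29A1 (ENT1) and SLC29A2 (ENT2) carry adenosine across the membrane, where ADK phosphorylates it to AMP and ADA deaminates it to inosine. The pathway is best known for restraining inflammation and for protecting oxygen-starved tissue, and NT5E and ADORA2B are textbook hypoxia-responsive genes.

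HKC-8 samples held 75441764 to 97984260 counted reads, against 42045335 to 51794355 in RCC4+VHL samples and 40915980 to 48355303 in HepG2 samples. Depth therefore differed with cell line. In fits that left out the replicate number, the biological coefficient of variation was 0.135 in HKC-8, 0.0437 in RCC4+VHL and 0.0733 in HepG2 cells. In those fits a change of given size was thus measured least precisely in HKC-8. VEGFA, a standard hypoxia-induced gene, rose in every line, by 1.72 on the log2 scale in HKC-8, 0.87 in RCC4+VHL and 1.38 in HepG2 cells. All 10 liver markers were present in HepG2 cells, where they summed to 37894 to 47432 CPM (the count scaled to a common library total) against at most 11.2 elsewhere. The sum of 10 kidney tubule markers was 159 to 203 CPM in HKC-8, 629 to 764 CPM in RCC4+VHL and 305 to 360 CPM in HepG2 cells. Of these markers PAX8 was at 129 to 181 CPM in HKC-8 and 8.74 to 12.6 CPM in HepG2 cells, while ANPEP was at 257 to 294 CPM in HepG2 and 1.84 to 4.24 CPM in HKC-8 cells. The 6 endothelial markers summed to at most 3.98 CPM. The sum of 8 leukocyte markers was at most 10.9 CPM in HKC-8 and 14.4 CPM in RCC4+VHL cells. Of these, CD68 was at 5.41 to 9.18 CPM in HKC-8 and 10.8 to 14.2 CPM in RCC4+VHL cells. CD14 was at 1.08 to 2.74 CPM in HKC-8 cells, and CD3E was at 0 in all samples. In HepG2 cells the 8 leukocyte markers summed to 2422 to 2918 CPM, of which LYZ gave 2369 to 2857 and CD68 46.7 to 67.9. There PTPRC and CD3E were at 0. The part of these markers in the results was not tested. In bulk RNA, fewer cells expressing a gene and less RNA per cell cannot be told apart.

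In RCC4+VHL cells 8 of the 9 members that passed the low-count filter changed with hypoxia, 4 upwards and 4 downwards. Of all 12811 genes tested in that line, 50.1% changed, 25.9% upwards and 24.2% downwards. In HepG2 cells 4 of 9 members changed, 3 upwards and 1 downwards, against 39.1% of 13623 genes (19.9% upwards, 19.2% downwards). In HKC-8 cells 1 of 10 changed, downwards, against 20.4% of 13536 genes (11.2% upwards, 9.12% downwards). The tests were edgeR quasi-likelihood tests within a line, with Benjamini-Hochberg adjustment over all genes tested and calls at an adjusted p under 0.05, and log2 fold changes below come from those fits. The median log2 fold change of the members was -0.055 in HKC-8, -0.066 in RCC4+VHL and 0.012 in HepG2 cells, beside 0.004, -0.002 and -0.004 over all genes tested. Their median absolute log2 fold change was 0.184, 0.271 and 0.243, respectively, beside 0.221, 0.178 and 0.213 over all genes tested, and the difference in counts between lines was not tested. ADORA2A fell in all 3 lines, and no member rose in all 3. With the replicate number as a block, 4 members changed in HKC-8 cells. Same-numbered samples deviated together there for numbers 2 and 3, and only weakly for number 1 (correlation across genes 0.113). When all 18 samples shared 1 estimate of the spread, 4 members were called in RCC4+VHL cells. The share of all genes called was not worked out for the block or for that joint fit. These counts therefore cannot be set beside what other genes did.

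**Figure D1:**
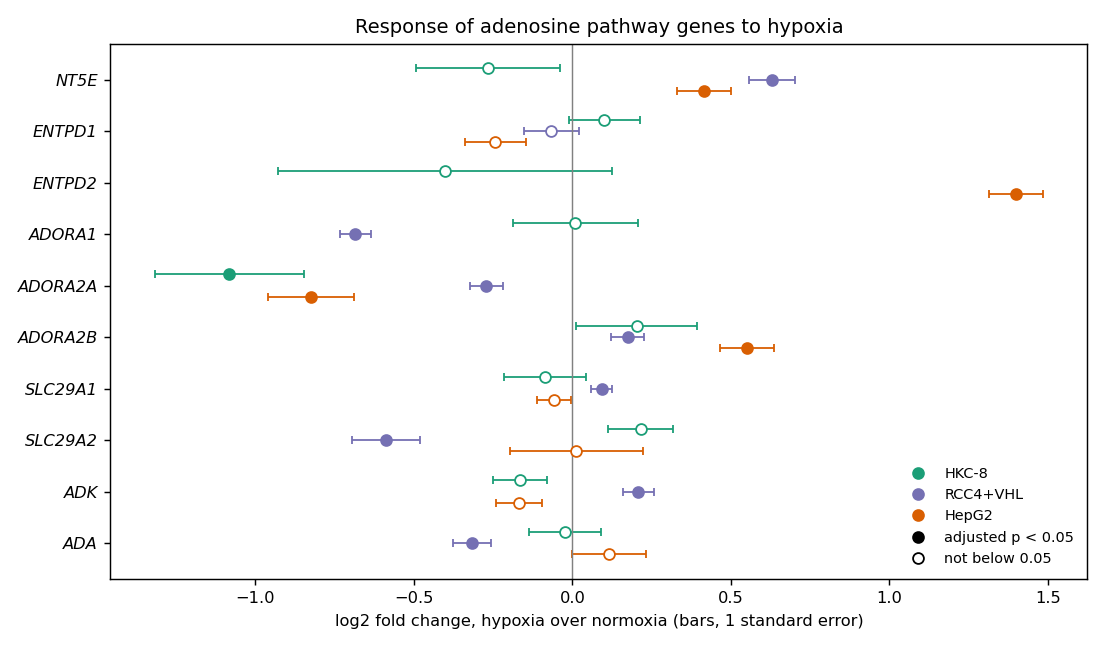
Log2 fold change of hypoxia over normoxia (x axis) for the 10 pathway genes (y axis) in HKC-8 (green), RCC4+VHL (purple) and HepG2 cells (orange). Bars are 1 standard error, filled points have an adjusted p under 0.05 in edgeR's quasi-likelihood test, and missing points were not tested. ENTPD2 in HepG2 cells, at 1.40, is farthest to the right, and ADORA2A lies left of 0 in every line.

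NT5E, ENTPD2 and ADORA2B were the members that rose in HepG2 cells, and the 250 bases before their RefSeq start sites are shown so that the sequences upstream of the induced genes can be compared. Windows were taken from the RefSeq promoter table of GRCh38.p14 and each matched its chromosome in GRCh37 at 1 place, whose coordinates are given. They are written 5′ to 3′ on the gene's own strand. Capitals mark the core of the hypoxia response element to which HIF binds, searched as ACGTG or GCGTG on both strands.
NT5E, chr6:86159551-86159800, plus strand: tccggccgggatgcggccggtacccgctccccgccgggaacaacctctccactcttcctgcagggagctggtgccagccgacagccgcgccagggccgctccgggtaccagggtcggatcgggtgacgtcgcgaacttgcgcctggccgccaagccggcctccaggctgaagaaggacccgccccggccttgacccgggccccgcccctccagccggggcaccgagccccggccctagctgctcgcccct
ENTPD2, chr9:139948514-139948763, minus strand: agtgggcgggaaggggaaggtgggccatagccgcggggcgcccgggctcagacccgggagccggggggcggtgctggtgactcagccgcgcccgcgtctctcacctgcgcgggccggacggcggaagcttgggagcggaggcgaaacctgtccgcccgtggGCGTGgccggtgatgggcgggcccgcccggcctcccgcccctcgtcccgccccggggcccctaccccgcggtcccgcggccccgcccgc
ADORA2B, chr17:15848194-15848443, plus strand: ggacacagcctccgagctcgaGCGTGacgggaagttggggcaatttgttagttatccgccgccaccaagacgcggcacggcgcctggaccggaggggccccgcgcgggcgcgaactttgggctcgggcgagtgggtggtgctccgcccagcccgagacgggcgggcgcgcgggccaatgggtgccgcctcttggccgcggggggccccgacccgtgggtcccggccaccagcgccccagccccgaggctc

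The core stood once in the ENTPD2 window, 89 bases before the start, and once in the ADORA2B window, 229 bases before it. It did not occur in the NT5E window. Of the 8 members with a RefSeq window at the start of their main GENCODE transcript, 3 held the core (ENTPD2, ADORA2B and ADA, the last 21 bases before the start) and 5 did not (NT5E, ENTPD1, ADORA1, SLC29A1 and ADK). Further windows at other starts of ENTPD1, ADK and SLC29A1 also held the core. Across all 35116 promoters of the table, such further windows included, 43.2% held at least 1 match in the same 250 bases. ADORA2A and SLC29A2 had no entry. A match here describes letters only, and a window without one says nothing about HIF binding elsewhere at the gene.

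NT5E, the enzyme that makes adenosine from AMP, spans chr6:86159302-86205509 on the plus strand of GRCh37 (GENCODE annotation, as for the other genes). Its normalised level in HKC-8 cells was 3.63, 5.50 and 3.59 CPM in normoxia and 3.58, 4.21 and 2.70 CPM in hypoxia. RCC4+VHL cells held 16.1, 14.1 and 13.1 CPM in normoxia and 21.1, 23.0 and 22.6 CPM in hypoxia. In HepG2 cells it was 24.8, 20.5 and 24.8 CPM in normoxia and 29.3, 32.7 and 30.9 CPM in hypoxia. Hypoxic samples lay above all normoxic ones in RCC4+VHL and HepG2 cells, and the groups overlapped in HKC-8. NT5E rose 1.55-fold in RCC4+VHL cells (log2 fold change 0.63, SE 0.07, edgeR adjusted p = 1.78e-07) and 1.33-fold in HepG2 cells (0.41, SE 0.09, edgeR adjusted p = 0.00187). In HKC-8 cells the log2 fold change was -0.27 (SE 0.23, edgeR adjusted p = 0.442). Its normoxic level increased from HKC-8 to RCC4+VHL to HepG2 cells, and each step was larger than the spread, with log2 differences of 1.77 (SE 0.18, edgeR adjusted p = 6.56e-06) and 0.69 (SE 0.10, edgeR adjusted p = 1.81e-05).

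**Figure D2:**
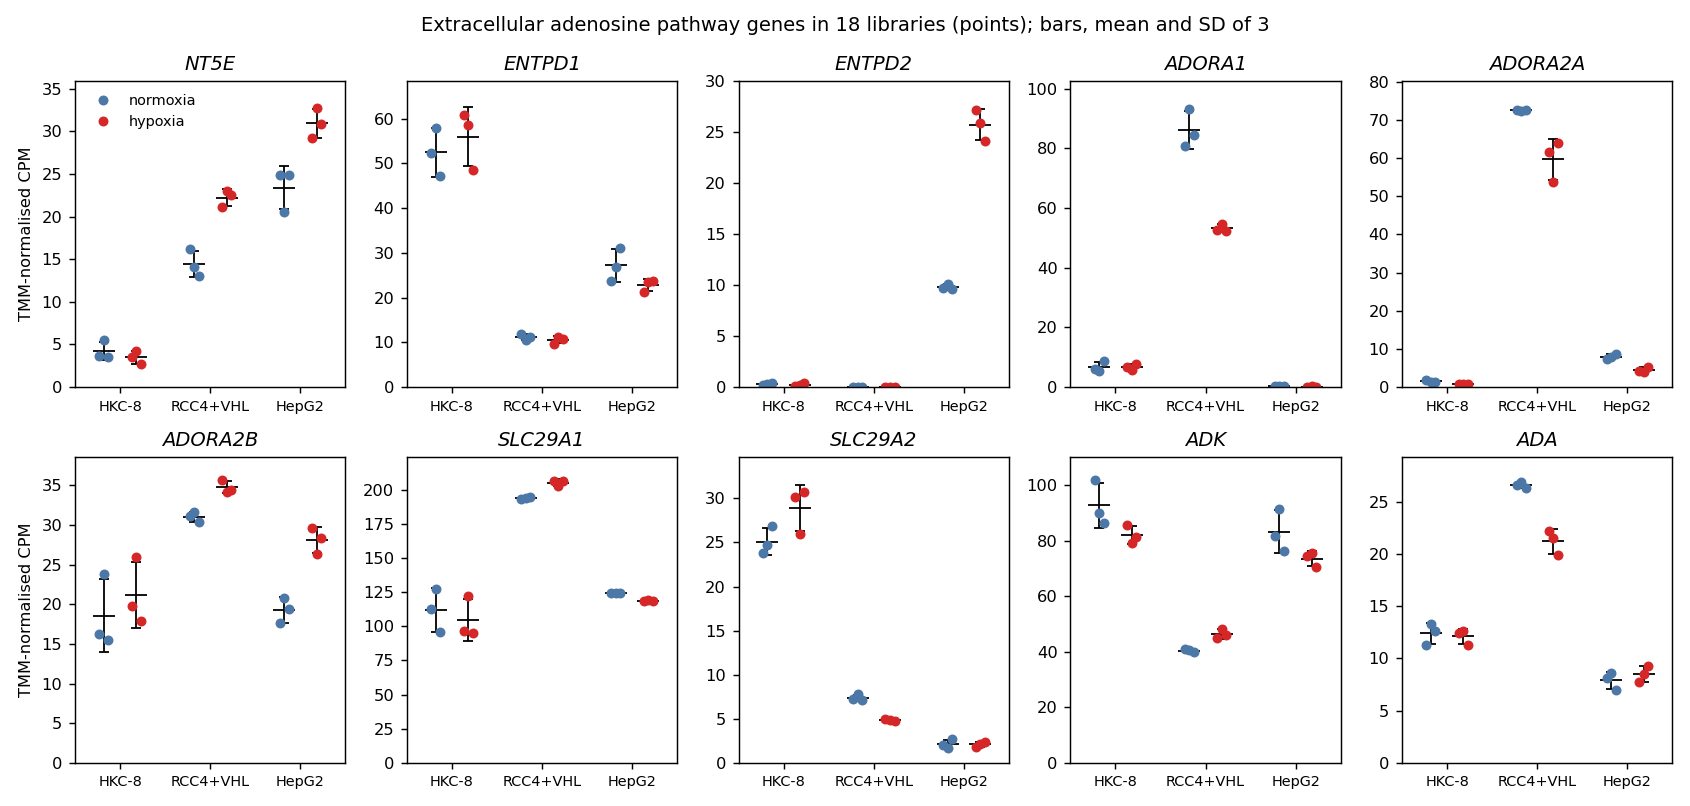
Normalised CPM (y axes, linear, from 0) of the 10 pathway genes in every sample, in normoxia (blue) and hypoxia (red) for each line on the x axis. Horizontal and vertical bars are the mean and SD of 3 samples. ENTPD2 stands at 24.2 to 27.2 CPM in hypoxic HepG2 cells and at 0 in all RCC4+VHL samples, and ADORA1 and ADORA2A are highest in RCC4+VHL cells.

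ENTPD2, an ectonucleotidase at chr9:139942559-139948513 on the minus strand, was the member with the strongest rise and was largely a HepG2 transcript. In HepG2 cells it stood at 9.72, 10.1 and 9.60 CPM in normoxia and at 27.2, 25.9 and 24.2 CPM in hypoxia, with no overlap. This was a 2.64-fold rise (log2 fold change 1.40, SE 0.09, edgeR adjusted p = 3.24e-08). In HKC-8 cells only 7 to 33 reads were counted per sample, or 0.18, 0.285 and 0.365 CPM in normoxia and 0.0874, 0.175 and 0.363 CPM in hypoxia. Those groups overlapped (log2 fold change -0.40, SE 0.53, edgeR adjusted p = 0.627). No read was counted in any of the 6 RCC4+VHL samples, and the gene was not tested there. Set against 3 counts per library in normoxic RCC4+VHL cells, at most 0.0701 CPM, the normoxic HepG2 mean of 9.82 CPM was at least 140-fold higher and the HKC-8 mean of 0.277 CPM at least 3.95-fold higher. Floors of this kind cover counting error only.

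ENTPD1 (CD39), which spans chr10:97471536-97637023 on the plus strand, was not called in any line. It was highest in HKC-8 cells, with 47.1 to 58.0 CPM in normoxia and 48.4 to 60.8 CPM in hypoxia, where the groups overlapped (log2 fold change 0.10, SE 0.11, edgeR adjusted p = 0.556). RCC4+VHL cells held 10.5 to 11.9 CPM in normoxia and 9.74 to 11.3 CPM in hypoxia (-0.07, SE 0.09, edgeR adjusted p = 0.557). HepG2 cells held 23.7 to 31.1 CPM in normoxia and 21.3 to 23.8 CPM in hypoxia (-0.24, SE 0.10, edgeR adjusted p = 0.0592). The HepG2 difference was called without normoxia replicate 1, at -0.33 and an edgeR adjusted p of 0.0154, and with no low-count filter, at -0.25 and 0.0470. The normoxic levels of the 3 lines were separated by the test in the order HKC-8, HepG2, RCC4+VHL, with log2 differences of -0.91 between HepG2 and HKC-8 cells and 1.28 between HepG2 and RCC4+VHL cells. An antisense gene, ENTPD1-AS1, shares 40.0% of the annotated exon bases of ENTPD1 and is not counted apart in the data. The kit marks strand, but the strand setting of the counting is not given in the sources used here.

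Per kilobase of the main GENCODE transcript, the make-up of the surface enzymes among the members differed from line to line. Surface enzymes outside the members are not in these sums. One of them, ENPP1, stood at 217 to 251 CPM in normoxic HepG2 cells. ENTPD1 supplied a mean of 76.2% (73.4 to 79.1%) of the summed NT5E, ENTPD1 and ENTPD2 RPKM in normoxic HKC-8 cells and 80.6% in hypoxia. In RCC4+VHL cells NT5E supplied 81.9% (80.5 to 82.6%) in normoxia and 88.1% (87.7 to 88.4%) in hypoxia. In HepG2 cells NT5E fell as a share from 48.9% (45.3 to 51.7%) to 38.2% (36.0 to 39.3%), while ENTPD2 went from 34.9% (32.6 to 37.9%) to 53.8% (52.1 to 56.6%). The sum of the 3 was 13.4 ± 0.66 RPKM in normoxic and 22.8 ± 0.66 RPKM in hypoxic HepG2 cells (SD, n = 3). It was 4.95 ± 0.48 and 7.08 ± 0.34 RPKM in RCC4+VHL cells, and 5.52 ± 0.71 and 5.56 ± 0.65 RPKM in HKC-8 cells. These shares are descriptions and were not tested. The main transcript of ENTPD1 is 12493 bases long, so its RPKM is low for its counts.

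**Figure D3:**
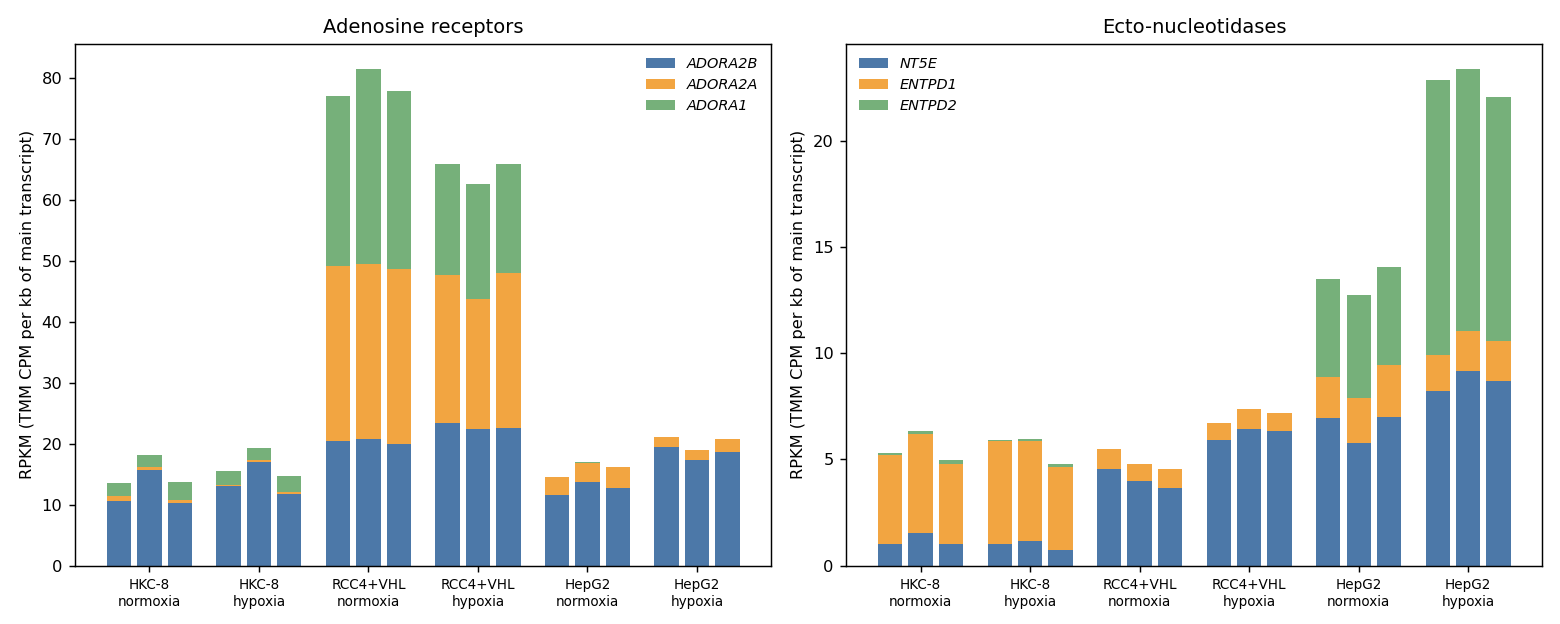
Summed RPKM (y axes, linear, normalised CPM per kilobase of main transcript) of the adenosine receptors (left) and ectonucleotidases (right) among the members, with 1 bar per sample in the order of replicates 1 to 3. Colours stand for genes. ADORA2B forms most of the receptor RPKM in HKC-8 and HepG2 cells and a mean of 25.9% (normoxia) or 35.3% (hypoxia) of it in RCC4+VHL cells, and ENTPD2 is visible mainly in HepG2 cells.

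Among receptors, ADORA2B, the low-affinity receptor that raises cyclic AMP, was present in all lines and lies at chr17:15848444-15879060 on the plus strand. Its level in HepG2 cells was 17.6, 20.8 and 19.3 CPM in normoxia and 29.6, 26.4 and 28.4 CPM in hypoxia. RCC4+VHL cells held 31.1, 31.7 and 30.4 CPM in normoxia and 35.7, 34.2 and 34.5 CPM in hypoxia. In HKC-8 cells it was 16.2, 23.8 and 15.6 CPM in normoxia and 19.8, 25.9 and 17.9 CPM in hypoxia. The groups were apart in HepG2 and RCC4+VHL cells and overlapped in HKC-8. ADORA2B rose 1.47-fold in HepG2 cells (log2 fold change 0.55, SE 0.09, edgeR adjusted p = 0.000216). The rise in RCC4+VHL cells was 1.13-fold (0.17, SE 0.05, edgeR adjusted p = 0.00719), and was not called when all 18 samples entered 1 fit (edgeR adjusted p = 0.422). In HKC-8 cells each hypoxic sample exceeded the normoxic sample with its own number, replicate 2 being highest in both groups. The log2 fold change was 0.20 (SE 0.19, edgeR adjusted p = 0.483) without the replicate block and 0.21 (SE 0.08, edgeR adjusted p = 0.0479) with it. Normoxic ADORA2B did not differ detectably between HepG2 and HKC-8 cells (log2 difference 0.09, SE 0.16, edgeR adjusted p = 0.597) and was higher in RCC4+VHL than in HKC-8 cells by 0.75 (SE 0.14, edgeR adjusted p = 0.000781). Without normoxic HKC-8 replicate 2, HepG2 exceeded HKC-8 cells by 0.30 (edgeR adjusted p = 0.0436).

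ADORA2A, the high-affinity receptor of the same coupling, was the member that fell in every line. In HKC-8 cells it went from 1.91, 1.37 and 1.36 CPM in normoxia to 0.712, 0.750 and 0.714 CPM in hypoxia. In HepG2 cells it went from 7.48, 7.83 and 8.65 CPM to 4.11, 3.98 and 5.39 CPM, and in RCC4+VHL cells from 72.7, 72.3 and 72.6 CPM to 61.5, 53.7 and 63.9 CPM. Hypoxic and normoxic samples did not overlap in any line. The log2 fold change was -1.08 in HKC-8 (SE 0.24, edgeR adjusted p = 0.0139), -0.82 in HepG2 (SE 0.14, edgeR adjusted p = 0.000359) and -0.27 in RCC4+VHL cells (SE 0.05, edgeR adjusted p = 0.000155). The HKC-8 call, on 57 to 159 reads per sample, was lost without normoxia replicate 1 (-0.91, edgeR adjusted p = 0.0737) or hypoxia replicate 1 (-1.07, edgeR adjusted p = 0.0586), and the RCC4+VHL call in 1 fit of all samples (edgeR adjusted p = 0.0616). In normoxia RCC4+VHL cells exceeded HKC-8 cells by 5.55 (SE 0.13, edgeR adjusted p = 3.23e-10) and HepG2 cells by 3.19 on the log2 scale.

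The gene spans chr22:24813847-24838325 on the plus strand, and 56.8% of its annotated exon bases also belong to the readthrough gene SPECC1L-ADORA2A on the same strand, which is not counted apart in the data. Reads from the readthrough transcript may thus be part of the ADORA2A counts. SPECC1L itself, looked up after the ADORA2A values were seen, had log2 fold changes of 0.17 (edgeR adjusted p = 0.149) in HKC-8, 0.19 (edgeR adjusted p = 0.00112) in RCC4+VHL and 0.02 (edgeR adjusted p = 0.800) in HepG2 cells.

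ADORA1, the receptor that lowers cyclic AMP (chr1:203059782-203136533, plus strand), was above all an RCC4+VHL transcript. In those cells it went from 80.8, 93.0 and 84.5 CPM in normoxia to 52.6, 54.8 and 52.2 CPM in hypoxia, without overlap. It fell by 0.68 on the log2 scale (fold change 0.622, SE 0.05, edgeR adjusted p = 5.46e-11). HKC-8 cells held 5.48 to 8.72 CPM in normoxia and 5.76 to 7.79 CPM in hypoxia, and these overlapped (log2 fold change 0.01, SE 0.20, edgeR adjusted p = 0.978). In HepG2 cells 10 to 19 reads were counted in normoxic and 2 to 10 in hypoxic samples, which did not pass the filter. With no filter the HepG2 log2 fold change was -1.28 (SE 0.62, edgeR adjusted p = 0.135). Normoxic RCC4+VHL cells exceeded HKC-8 cells by 3.67 (SE 0.17, edgeR adjusted p = 2.22e-08), and HepG2 cells lay below HKC-8 cells, at a log2 difference of -4.43 (SE 0.29, edgeR adjusted p = 3.01e-08).

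Receptor make-up per kilobase followed these levels. ADORA2B made up a mean of 79.9% (74.2 to 86.6%) of the summed receptor RPKM in normoxic HKC-8 cells and 83.8% (79.9 to 88.2%) in hypoxic ones. In HepG2 cells its share went from 79.5% (78.4 to 80.9%) in normoxia to 91.0% (89.7 to 92.1%) in hypoxia, while that of ADORA2A went from 19.9% to 8.75%. Normoxic RCC4+VHL cells divided their receptor RPKM among ADORA1 (37.7%), ADORA2A (36.4%) and ADORA2B (25.9%), and hypoxic ones at 28.3%, 36.4% and 35.3%. The sum of the 3 was 78.8 ± 2.37 RPKM in normoxic RCC4+VHL cells and 64.8 ± 1.91 RPKM in hypoxic ones (SD, n = 3). It was 15.9 ± 1.18 and 20.3 ± 1.13 RPKM in HepG2 cells, and 15.1 ± 2.58 and 16.6 ± 2.42 RPKM in HKC-8 cells. The sum was thus lower in hypoxia in RCC4+VHL cells and higher in HepG2 cells, a contrast that was not tested.

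The equilibrative transporter SLC29A1 (chr6:44187290-44201879, plus strand) changed little. It stood at 193 to 195 CPM in normoxic and 203 to 207 CPM in hypoxic RCC4+VHL cells, without overlap. The rise of 1.07-fold (log2 fold change 0.09, SE 0.03, edgeR adjusted p = 0.0248) was lost when normoxia replicate 1 or 2 or hypoxia replicate 1 or 3 was left out (edgeR adjusted p = 0.0684 to 0.0904), and in 1 fit of all samples (0.540). In HepG2 cells it went from 124 to 125 CPM in normoxia to 119 CPM in each hypoxic sample, also without overlap, at a log2 fold change of -0.06 (SE 0.05, edgeR adjusted p = 0.425). HKC-8 cells ranged from 95.7 to 127 CPM in normoxia and from 95 to 123 CPM in hypoxia (-0.09, SE 0.13, edgeR adjusted p = 0.670). Its normoxic level was highest in RCC4+VHL cells, above HKC-8 by 0.80 (SE 0.09, edgeR adjusted p = 1.54e-05), and was not separated between HepG2 and HKC-8 cells (log2 difference 0.19, SE 0.10, edgeR adjusted p = 0.0955). Without normoxic HKC-8 replicate 2 the HepG2 level was the higher by 0.29 (edgeR adjusted p = 0.0129).

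SLC29A2 (chr11:66129992-66139685, minus strand), the second carrier of this type, had another order of lines. HKC-8 cells held 23.8, 24.7 and 26.8 CPM in normoxia and 30.1, 25.9 and 30.8 CPM in hypoxia. RCC4+VHL cells held 7.22, 7.78 and 7.08 CPM in normoxia and 4.97, 4.88 and 4.74 CPM in hypoxia. HepG2 cells held 1.63 to 2.67 CPM in normoxia and 1.83 to 2.41 CPM in hypoxia, from 73 to 112 reads per sample. Only the RCC4+VHL groups were apart. SLC29A2 fell there by 0.59 on the log2 scale (fold change 0.666, SE 0.11, edgeR adjusted p = 8.47e-05). In HKC-8 cells its log2 fold change was 0.22 (SE 0.10, edgeR adjusted p = 0.166) without the replicate block and 0.21 (SE 0.07, edgeR adjusted p = 0.0421) with it. In HepG2 cells it was 0.01 (SE 0.21, edgeR adjusted p = 0.972). Each step of the normoxic order HKC-8, RCC4+VHL, HepG2 passed the test, with log2 differences of -1.77 between RCC4+VHL and HKC-8 cells and -1.81 between HepG2 and RCC4+VHL cells. SLC29A1 accounted for 83.8% of the transporter RPKM in normoxic HKC-8, 96.9% in RCC4+VHL and 98.6% in HepG2 cells, and SLC29A2 for the rest. With all exons together the share of SLC29A2 was 26.4%, 5.66% and 2.60%, in place of 16.2%, 3.12% and 1.41%.

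The 2 removal enzymes moved apart in RCC4+VHL cells. ADK, adenosine kinase (chr10:75910960-76469721, plus strand), went from 40.9, 40.6 and 39.9 CPM in normoxia to 44.9, 48.2 and 46.2 CPM in hypoxia, a rise of 1.16-fold (log2 fold change 0.21, SE 0.05, edgeR adjusted p = 0.000877). In 1 fit of all samples the edgeR adjusted p was 0.0546. ADK was lower in hypoxia in the other lines, without overlap: 86.5 to 102 CPM against 79.3 to 85.8 CPM in HKC-8 cells and 76.3 to 91.6 CPM against 70.7 to 75.7 CPM in HepG2 cells. Neither difference was called, with a log2 fold change of -0.17 in HKC-8 (SE 0.08, edgeR adjusted p = 0.192) and -0.17 in HepG2 cells (SE 0.07, edgeR adjusted p = 0.0893). With the replicate block the HKC-8 value was -0.16 (SE 0.06, edgeR adjusted p = 0.0431), and without HepG2 normoxia replicate 3 the HepG2 value was -0.23 (edgeR adjusted p = 0.00938).

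ADA, adenosine deaminase (chr20:43213537-43280893, minus strand), went from 26.6, 26.9 and 26.3 CPM in normoxic to 22.2, 21.6 and 19.9 CPM in hypoxic RCC4+VHL cells. It fell there by 0.32 on the log2 scale (fold change 0.803, SE 0.06, edgeR adjusted p = 0.000141), with no overlap. HKC-8 cells held 11.3 to 13.3 CPM in normoxia and 11.3 to 12.6 CPM in hypoxia (log2 fold change -0.02, SE 0.11, edgeR adjusted p = 0.909). HepG2 cells held 6.98 to 8.61 CPM in normoxia and 7.78 to 9.26 CPM in hypoxia (0.11, SE 0.12, edgeR adjusted p = 0.473). Both of these pairs overlapped. Normoxic ADA was highest in RCC4+VHL cells, where normoxic ADK was lowest. ADA supplied 46.7% of the summed ADK and ADA RPKM in normoxic RCC4+VHL cells and 37.9% in hypoxic ones, against 15.2% in normoxic HKC-8 and 11.2% in normoxic HepG2 cells. With the length of all annotated exons together, which is 12177 bases for ADA, the normoxic shares were 20.1% in RCC4+VHL, 4.90% in HKC-8 and 3.51% in HepG2 cells. Annotated exons of ADA and of PKIG, a gene on the opposite strand, share 853 bases. PKIG had a log2 fold change of -0.02 (edgeR adjusted p = 0.754) in RCC4+VHL cells.

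Whether a response differed between lines was tested by an interaction term (line by oxygen). HepG2 and HKC-8 cells share a labelled exposure, except that the hypoxic HKC-8 titles read 0.1% oxygen. Between them 1 of 10 members differed, against 9.30% of the 15046 genes tested. It was ENTPD2, whose log2 response was higher in HepG2 cells by 1.81 (SE 0.41, edgeR adjusted p = 0.0119). That value rests on 7 to 33 reads per sample in HKC-8 cells. NT5E differed by 0.68 (SE 0.24, edgeR adjusted p = 0.0958), and reached 0.82 (edgeR adjusted p = 0.0360) without hypoxic HKC-8 replicate 2 and 0.76 (edgeR adjusted p = 0.0460) without normoxic HKC-8 replicate 3. NT5E was also called by DESeq2 (0.69, adjusted p = 0.0414) and in 1 fit of all 18 samples (0.68, edgeR adjusted p = 0.0419). With the replicate block, whose numbers were read as pairs in HKC-8 cells only, 4 members differed. They were ENTPD2, NT5E (0.68, edgeR adjusted p = 0.00679), ENTPD1 (-0.33, edgeR adjusted p = 0.0319) and ADORA1 (-1.32, edgeR adjusted p = 0.0354). The 9.30% above belongs to the fit without the block, and the share with it was not worked out. The ADORA1 value rests on 2 to 19 reads per HepG2 sample, and the gene did not pass the filter in HepG2 cells alone.

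Between RCC4+VHL and HKC-8 cells 5 of the 9 members that could be tested differed, against 15.2% of 14203 genes. The response in RCC4+VHL cells was higher for NT5E by 0.88 (SE 0.24, edgeR adjusted p = 0.0255), for ADORA2A by 0.79 (SE 0.17, edgeR adjusted p = 0.00755) and for ADK by 0.35 (SE 0.09, edgeR adjusted p = 0.0210). It was lower for SLC29A2, at -0.82 (SE 0.13, edgeR adjusted p = 0.00140), and for ADORA1, at -0.71 (SE 0.21, edgeR adjusted p = 0.0348). For ADORA2A the difference is one of extent, since both lines fell. The ADORA1 call held without normoxic HKC-8 replicate 3 (-0.93) or hypoxic HKC-8 replicate 2 (-0.80), and was lost without any other 1 of the 12 samples (-0.57 to -0.75, edgeR adjusted p = 0.0506 to 0.0894). The NT5E call was lost without normoxic HKC-8 replicate 2 (0.65, edgeR adjusted p = 0.0506), normoxic RCC4+VHL replicate 2 (0.87) or 3 (0.82), or hypoxic RCC4+VHL replicate 2 (0.87) or 3 (0.88).

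Between RCC4+VHL and HepG2 cells 4 of 9 members differed, against 22.6% of 14813 genes. The RCC4+VHL response was higher for ADORA2A by 0.55 (SE 0.13, edgeR adjusted p = 0.00497) and for ADK by 0.37 (SE 0.09, edgeR adjusted p = 0.00570). It was lower for ADORA2B, at -0.39 (SE 0.10, edgeR adjusted p = 0.00675), and for ADA, at -0.44 (SE 0.13, edgeR adjusted p = 0.0163). In 1 fit of all 18 samples the ADORA2B difference was -0.38 (SE 0.19, edgeR adjusted p = 0.223) and was not called. The NT5E responses of these lines were not separated (0.21, SE 0.12, edgeR adjusted p = 0.242). These comparisons share samples, and both contrasts with RCC4+VHL cells also differ in labelled exposure.

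In normoxia 7 of the 10 members differed between HepG2 and HKC-8 cells, where 82.2% of the 14427 genes tested did. All 10 differed between RCC4+VHL and HKC-8 cells, against 85.0% of 13755 genes, and between HepG2 and RCC4+VHL cells, against 87.1% of 14241 genes. Among them ENTPD2 had no reads in RCC4+VHL cells and passed the filter only through the other line. Its calls there say only that the other line had reads. Members thus differed between lines about as often as other genes. Cell line and library depth cannot be told apart in the comparisons with HKC-8 cells.

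A wider list of 74 purine genes, all found in the data, was examined in the same fits. It covers other ectonucleotidases and phosphatases, intracellular nucleoside diphosphatases, ATP release channels, other nucleoside transporters and other purine receptors. Receptor G proteins, adenylyl cyclases and further genes of adenosine and AMP handling are also in it. In HKC-8 cells 9 of the 49 tested changed (6 up, 3 down), and 18 with the replicate block. In RCC4+VHL cells 25 of 44 changed (17 up, 8 down), and in HepG2 cells 21 of 50 (14 up, 7 down). Over all genes tested the share that changed was 20.4%, 50.1% and 39.1%, respectively. The median log2 fold change of the list was -0.009, 0.103 and 0.043, beside 0.004, -0.002 and -0.004 over all genes tested. In 1 fit of all 18 samples the counts were 17 in HKC-8 and 9 in RCC4+VHL cells. The HKC-8 count fell to 3 without normoxia replicate 1 or hypoxia replicate 1 and to 5 without normoxia replicate 2. The share of all genes called was not worked out for the block, the joint fit or the omissions. Whether these moves are particular to the list was not tested.

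Of these genes, 5 changed in all 3 lines. Not all 5 HKC-8 calls held without normoxia replicate 1 or hypoxia replicate 1, where only 3 wider genes were called in that line. SLC29A4, a monoamine and adenosine transporter of the equilibrative family, rose by 1.58 on the log2 scale in HKC-8 (SE 0.23), 0.77 in RCC4+VHL (SE 0.06) and 0.60 in HepG2 cells (SE 0.12). Its HKC-8 level was low, at 0.495 to 0.541 CPM in normoxia and 1.38 to 1.76 CPM in hypoxia. AMPD3, an AMP deaminase, which diverts AMP from adenosine to IMP, rose by 0.42 in HKC-8 (SE 0.13) and 0.62 in HepG2 cells (SE 0.19). AMPD3 in RCC4+VHL cells went from 0.117 to 0.201 CPM in normoxia to 2.00 to 2.44 CPM in hypoxia (log2 fold change 3.75, SE 0.31, edgeR adjusted p = 8.78e-10), on 5 to 10 reads per normoxic sample. Those normoxic samples alone would not have passed the low-count filter. The RCC4+VHL call and p-value of AMPD3 thus say little beyond the reads themselves. ADCY6, an adenylyl cyclase, rose by 0.39, 0.13 and 0.23 in HKC-8, RCC4+VHL and HepG2 cells, and NT5C3B, a cytosolic nucleotidase, fell by 0.31, 0.14 and 0.20.

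P2RY11, a receptor for ATP, rose by 1.31 in HKC-8 (SE 0.30), 0.51 in RCC4+VHL (SE 0.21) and 1.40 in HepG2 cells (SE 0.15). In RCC4+VHL cells its hypoxic samples (2.68 to 4.46 CPM) overlapped its normoxic ones (1.66 to 3.24 CPM). The readthrough gene PPAN-P2RY11, on the same strand and not counted apart in the data, shares 53.6% of the exon bases of P2RY11. PPAN itself, looked up after these values were seen, had log2 fold changes of -0.13, -0.08 and 0.28 in HKC-8, RCC4+VHL and HepG2 cells.

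**Figure D4:**
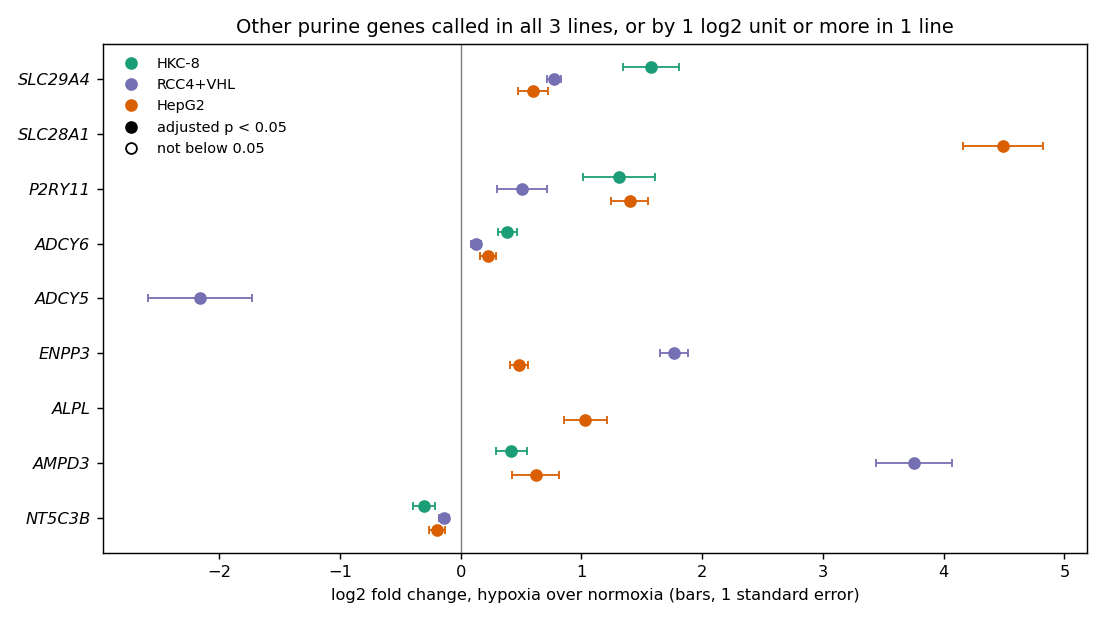
Log2 fold change of hypoxia over normoxia (x axis) for 9 purine genes outside the pathway proper (y axis), chosen as called in all 3 lines or called in a line with a log2 fold change of 1 or more in size. Bars are 1 standard error, filled points have an adjusted p under 0.05 in edgeR's quasi-likelihood test, and missing points were not tested. SLC28A1 in HepG2 cells (4.49) and AMPD3 in RCC4+VHL cells (3.75) lie farthest to the right. Neither would have passed the low-count filter on the normoxic samples of that line alone.

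Another 4 genes were called in 1 line with a log2 fold change beyond 1 in size. SLC28A1, a sodium-coupled nucleoside transporter, went from 4 to 6 reads per normoxic HepG2 sample to 76 to 134 per hypoxic one, or from 0.0892 to 0.143 CPM to 1.95 to 2.87 CPM (log2 fold change 4.49, SE 0.33, edgeR adjusted p = 2.22e-07). SLC28A1 had at most 1 read in any HKC-8 or RCC4+VHL sample. In HepG2 cells it passed the low-count filter only through the hypoxic samples, where it was high. Its call and p-value thus say little beyond the reads themselves. ENPP3, an ectoenzyme that also splits extracellular ATP, rose by 1.77 in RCC4+VHL (SE 0.11, edgeR adjusted p = 8.44e-12) and 0.48 in HepG2 cells (SE 0.08, edgeR adjusted p = 0.000276). ALPL, the tissue-nonspecific alkaline phosphatase, which can release adenosine from AMP, rose by 1.03 in HepG2 cells (SE 0.18, edgeR adjusted p = 0.000519). ADCY5, an adenylyl cyclase, fell by 2.16 in RCC4+VHL cells (SE 0.43, edgeR adjusted p = 0.000217), from 27 to 43 reads per normoxic sample to 6 to 11 per hypoxic one. Its hypoxic samples alone would not have passed the low-count filter, so the same limit holds for its call.

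The profile of NT5E over the 18 samples, which had an SD of 1.28 on the log2 scale, was most like those of ITGB5, DOCK4 and TNFRSF19 among 10866 genes with at least 10 counts in every sample. The root mean square distance between centred log2 CPM was 0.286 for ITGB5, 0.286 for DOCK4 and 0.301 for TNFRSF19. All 3 genes were lower in HKC-8 than in RCC4+VHL or HepG2 cells, as NT5E was, which follows from choosing them by likeness. Mean levels in normoxic HKC-8, RCC4+VHL and HepG2 cells were 27.4, 149 and 182 CPM for ITGB5, 13.7, 57.8 and 63.7 CPM for DOCK4 and 39.9, 177 and 184 CPM for TNFRSF19. In hypoxic HKC-8 cells the means were 33.7 CPM for ITGB5, 12.8 CPM for DOCK4 and 25.3 CPM for TNFRSF19. In RCC4+VHL and HepG2 cells each of these genes had a higher mean in hypoxia than in normoxia. The likeness to NT5E is a description over samples that share lines and depth.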

How the data were processed

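PolyA+ RNA of 3 cell lines in normoxia and hypoxia (3 samples per condition) was isolated with mirVana, DNase-treated and made into libraries with ScriptSeq v2. The authors trimmed adapters with Trim Galore 0.3.3, aligned reads to GRCh37 with TopHat 2.0.8b and Bowtie 1.0.0, removed fragments that did not map uniquely with SAMtools 0.1.19, and counted reads on UCSC genes with HTSeq 0.5.4p3 in intersection-strict mode. The deposited values are raw counts per gene and sample. Reads within more than 1 gene, or mapping to near-identical copies, are lost by these steps.

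Counts were analysed with edgeR 4.0.16 in R 4.3.3. Genes were kept by filterByExpr, scaled by TMM and compared by glmQLFit and glmQLFTest with Benjamini-Hochberg adjustment over all genes tested, at 0.05. The study used DESeq2, which was run here as an alternative (1.42.0). Each line was fitted alone for hypoxia against normoxia, 12 samples were fitted for an interaction, and 6 for normoxic levels. Printed CPM use 1 TMM scale over all 18 samples, with the SD of 3 samples, whereas fold changes come from the fits of the samples compared. SE is the log2 fold change divided by the square root of F. RPKM divides CPM by the length of the main GENCODE transcript. ENTPD2 was not tested in an interaction with RCC4+VHL cells, which had no reads. Every replicate pair differed by more than sampling noise (chi-square per degree of freedom 4.57 to 91.5), and 3 reads correspond to 0.0306 to 0.0733 CPM, depending on the library.

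Normoxic and hypoxic samples of a line share replicate numbers in the labels. After subtraction of group means, samples with the same number correlated across genes at 0.113 to 0.469 in HKC-8, 0.0611 to 0.181 in HepG2 and -0.0107 to 0.0333 in RCC4+VHL cells. The numbers were therefore read as pairs in HKC-8 only, where each correlation passed 0.1. Number 1 is not set apart as a pair there. Normoxic HKC-8 replicate 1 correlated at 0.119 with hypoxic replicate 2 and at 0.113 with hypoxic replicate 1. Alternatives were the replicate block, the omission of single samples, a joint fit of all 18, DESeq2, median-of-ratios factors, and either no filter or a minimum of 10 reads per sample. The length of all exons together was added after the data were seen. The tests were tried on simulated counts.

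Named genes are all 10 members, VEGFA, purine genes of the wider list called in all 3 lines or called in a line with a log2 fold change of 1 or more in size, and the 3 genes nearest to NT5E in profile. SPECC1L, PPAN, PKIG, ENPP1 and cell type markers are named beside results. The members and lists were chosen with earlier results of these data known.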

Additional observations from a re-analysis of the deposited data

Results flagged for a closer look

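ENTPD2 differed in its response between HepG2 and HKC-8 cells, which share a labelled exposure except in the HKC-8 titles. Its log2 fold change with hypoxia was higher in HepG2 than in HKC-8 cells by 1.81 (SE 0.41, edgeR interaction test, adjusted p = 0.0119), with a mean of 9.82 ± 0.28 CPM in normoxic and 25.7 ± 1.5 CPM in hypoxic HepG2 cells (SD, n = 3). In HKC-8 cells the means were 0.277 ± 0.093 CPM and 0.208 ± 0.141 CPM, on 7 to 33 reads per sample. The difference ranged from 1.47 to 2.43 when each of the 12 samples was left out in turn, with an edgeR adjusted p of 0.000728 to 0.0380. It had no value when at least 10 counts were required in every sample.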

How the results depend on the processing

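Of 1162 values of single members under the alternatives named above, 1085 kept their direction and their side of the threshold, 26 lost and 24 gained a call, and 27 changed sign. Every sign change was in a value that was not called. The all-sample fit gave 17 wider genes in HKC-8, and 4 members and 9 wider genes in RCC4+VHL cells. Shares over all genes were worked out for the main fits only, so counts under any alternative have none beside them. Members whose response differed in the HKC-8 and HepG2 contrast numbered 2 with DESeq2 or the all-sample fit, and 0 with at least 10 counts in every sample, where ENTPD2 and ADORA1 were not tested. DESeq2 also called SLC29A1 (0.13) and SLC29A2 (-0.62) as different in response between RCC4+VHL and HepG2 cells. The ADK difference in response between HepG2 and HKC-8 cells changed sign with no filter (-0.00124) and with at least 10 counts (-0.0216). Other causes were not tested.

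With the replicate block, which pairs samples by number, 4 members and 18 wider genes were called in HKC-8 cells. In the contrast of HKC-8 with HepG2 responses 4 members (ENTPD2, NT5E, ENTPD1 and ADORA1) differed. Of these, ENTPD2 rests on few HKC-8 reads and ADORA1 on few HepG2 reads. In HepG2 cells, where the numbers were not read as pairs, the block called ENTPD1 (-0.24) and ADK (-0.16) as lower. It also called SLC29A2 (-0.62) between RCC4+VHL and HepG2 and ADA (-0.31) between RCC4+VHL and HKC-8 responses.

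When each sample was left out in turn, members called numbered 0 to 1 and wider genes 3 to 12 in HKC-8 cells. Members with a different response numbered 1 to 2 between HKC-8 and HepG2 cells and 3 to 5 between HKC-8 and RCC4+VHL cells. Log2 fold changes in HKC-8 cells ranged from -0.12 to 0.23 for ADORA1, from -0.21 to 0.0176 for SLC29A1 and from -0.0876 to 0.0287 for ADA, and that of SLC29A2 in HepG2 cells from -0.13 to 0.21. The difference in response between HepG2 and HKC-8 cells ranged from -0.0714 to 0.14 for SLC29A1, from -0.36 to 9.42e-05 for SLC29A2 and from -0.0732 to 0.0737 for ADK. That of ADORA2B between RCC4+VHL and HKC-8 cells ranged from -0.26 to 0.13, and its normoxic difference between HepG2 and HKC-8 cells from -0.0177 to 0.30. Low read numbers limit ENTPD2 in HKC-8 (7 to 33 reads) and ADORA1 in HepG2 cells (2 to 19 reads), and shares per kilobase depend on the length used. With the length of all exons together, an alternative added after the data were seen, 33 of 60 shares moved by more than the SD of 3 samples.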
